A study of Mus musculus with 6 samples.

Results

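The 10 circadian clock genes Per1, Per2, Per3, Cry1, Cry2, Arntl, Clock, Nr1d1, Nr1d2 and Dbp were followed through testis messenger RNA of mice that carry or lack a conditional knockout of L3mbtl2. The members were taken by symbol, and all 10 of the 23253 genes listed in any library were found, each of them in all 6 libraries. RNA came from testes of C57BL/6 mice aged 8 months. The label control is given to 3 libraries and the label L3mbtl2 cKO, for the conditional knockout of a Polycomb repressor subunit, to 3 others. The allele of the control animals, the Cre driver, the number of animals behind a library and the hour of tissue collection are not given in the sources used here. P-values here are therefore set by the variation among libraries alone, and that variation may be technical.

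The clock is a feedback loop of transcription. CLOCK and the Arntl product, BMAL1, bind E-boxes as a pair and switch on the Per and Cry genes, whose proteins return to the nucleus and inhibit that pair. A second loop runs through the nuclear receptors of Nr1d1 and Nr1d2, which repress Arntl through ROR response elements, and Dbp is an output gene whose protein binds D-boxes in its own targets. In most organs these genes cycle over the day, with Arntl near its peak when Dbp and the Per genes are low. The testis is known as an exception, in which Per1 is made steadily in germ cells and daily rhythms are weak, while BMAL1 is known to sustain steroid synthesis in Leydig cells.

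Expected counts summed to between 17689205 and 18822050 per library. L3mbtl2 itself was higher in the libraries labelled cKO, at 14.2 ± 0.660 FPKM under the label control and 16.3 ± 0.663 under the label cKO (SD, n = 3 each), and 679 ± 24.0 against 1055 ± 43.0 expected counts, with a log2 fold change of 0.67 (SE 0.10) on the counts. This goes against the label, and the deposited tables carry file names with the opposite genotype, so libraries are called here by their labels and every direction would turn if the labels were exchanged. Of the marker lists, that of Leydig cells (17 of 17 genes listed) summed to 4495, 2226 and 10720.0 FPKM in control replicates 1, 2 and 3 and reached 1589, 1753 and 1597 FPKM in cKO replicates 1, 2 and 3, and that of Sertoli cells (23 of 23 listed) to 2189, 1466 and 3944 against 1164, 1199 and 1130 FPKM. The defining genes Insl3 (1337 to 7339 against 955 to 1110 FPKM) and Cyp11a1 of Leydig cells, and Sox9 and Wt1 of Sertoli cells, were above 0 in every library. Other lists of cells outside the germ line also had negative medians, with macrophage genes (14 of 14 tested below 0, median log2 fold change -1.41) at 81.8 to 349 against 77.9 to 91.9 FPKM in sum and median log2 fold changes of -0.71 for peritubular myoid and -0.56 for endothelial genes. So did spermatogonia genes (10 of 12 tested below 0, median -0.53), at 98.0 to 140.04 against 80.1 to 83.8 FPKM. The defining genes of that list, Id4 and Gfra1, were the 2 above 0, and both overlapped between groups. Their log2 fold changes were 0.154 (SE 0.119) and 0.149 (SE 0.239). Lists of later germ cells went the other way, with spermatocyte genes at 2673 to 3573 against 3515 to 3657 FPKM in sum, round spermatid genes at 1552 to 2067 against 2131 to 2248, and elongating spermatid genes at 21767 to 30252 against 31309.5 to 33987. The epididymis list, for tissue dissected with the testis, summed to at most 3.60 FPKM. In bulk tissue, fewer cells of a type and less RNA per cell cannot be told apart.

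Promoter windows are shown for the members in which a script found a clock element, since these elements tie the genes into the loop described above. The windows are RefSeq sequences of build GRCm38.p6, whose primary assembly is that of mm10, and run from 250 bases before to 50 bases after an annotated start. Of the 10 members, 9 had an entry, with 13 windows between them, and Per2 had none. Capitals mark an E-box (CACGTG), an E-prime box (CACGTT), a D-box (TTATGTAA or TTACGTAA) or the core of a ROR response element (TAGGTCA), on either strand, 5′ to 3′ along the gene.
Per1 window, chr11:69098699-69098998, plus strand: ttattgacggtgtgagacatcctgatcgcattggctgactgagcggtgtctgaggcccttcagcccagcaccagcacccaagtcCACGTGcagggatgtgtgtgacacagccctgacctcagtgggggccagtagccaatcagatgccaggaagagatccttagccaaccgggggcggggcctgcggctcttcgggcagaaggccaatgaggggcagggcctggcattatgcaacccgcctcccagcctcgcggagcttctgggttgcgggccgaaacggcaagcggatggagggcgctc
Per3 window, chr4:151044616-151044915, minus strand: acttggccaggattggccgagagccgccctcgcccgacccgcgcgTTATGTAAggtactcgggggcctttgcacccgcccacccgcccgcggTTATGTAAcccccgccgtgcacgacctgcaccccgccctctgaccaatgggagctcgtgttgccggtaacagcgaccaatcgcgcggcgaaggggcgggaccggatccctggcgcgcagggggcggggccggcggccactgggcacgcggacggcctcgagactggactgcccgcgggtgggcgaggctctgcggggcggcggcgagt
Cry1 window, chr10:85185005-85185304, minus strand: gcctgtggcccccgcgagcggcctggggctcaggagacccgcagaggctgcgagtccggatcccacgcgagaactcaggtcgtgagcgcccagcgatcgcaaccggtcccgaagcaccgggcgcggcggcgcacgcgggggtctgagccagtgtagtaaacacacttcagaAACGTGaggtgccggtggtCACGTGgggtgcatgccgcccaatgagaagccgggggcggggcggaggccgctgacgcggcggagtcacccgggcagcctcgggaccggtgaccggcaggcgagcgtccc
Cry2 window, chr2:92434020-92434319, minus strand: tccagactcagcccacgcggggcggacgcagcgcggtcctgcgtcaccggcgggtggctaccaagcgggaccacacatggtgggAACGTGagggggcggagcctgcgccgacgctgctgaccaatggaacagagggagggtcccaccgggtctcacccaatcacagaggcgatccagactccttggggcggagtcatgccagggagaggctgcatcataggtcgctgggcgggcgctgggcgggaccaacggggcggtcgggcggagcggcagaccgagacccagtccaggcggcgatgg
Nr1d1 window, chr11:98775328-98775627, minus strand: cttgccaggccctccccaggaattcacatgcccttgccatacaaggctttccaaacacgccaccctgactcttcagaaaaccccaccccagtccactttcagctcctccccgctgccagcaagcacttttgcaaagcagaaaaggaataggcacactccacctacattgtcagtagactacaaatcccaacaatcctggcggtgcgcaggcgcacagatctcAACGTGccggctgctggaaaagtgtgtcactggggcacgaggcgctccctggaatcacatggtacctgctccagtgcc
Arntl window, chr7:113207261-113207560, plus strand: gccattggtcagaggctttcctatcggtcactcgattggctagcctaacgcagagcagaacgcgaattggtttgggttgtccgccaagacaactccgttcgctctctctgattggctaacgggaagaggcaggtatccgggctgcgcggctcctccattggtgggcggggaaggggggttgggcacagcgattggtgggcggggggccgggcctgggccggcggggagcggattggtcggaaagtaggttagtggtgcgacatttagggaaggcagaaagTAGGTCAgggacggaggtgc
Cry1 held an E-box 60 bases before its start and an E-prime box, on the reverse strand, 79 bases before it. Per1 held an E-box 166 bases before, and Per3 a pair of D-boxes 205 and 158 bases before. Cry2 and Nr1d1 each held an E-prime box on the reverse strand, 166 and 28 bases before the start, and Arntl a ROR element core 30 bases after it. Among all 32851 windows, 7.15% held the E-box, 4.68% the E-prime box, 1.06% a D-box in either spelling and 2.61% the ROR core. The cAMP response element TGACGTCA, in 1.79% of all windows, was not among the letters of any member's window. No searched element was found in the windows of Dbp, Clock or Nr1d2. A match is a description of the letters and not a measured binding site.

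Levels per length differed widely among the members, with Per1 far above the rest. In the libraries labelled control, Per1 stood at 38.1 ± 5.80 FPKM (fragments per kilobase of transcript, scaled to library depth), followed by Cry1 at 16.0 ± 0.674, Cry2 at 13.8 ± 3.58, Nr1d1 at 9.84 ± 1.06, Dbp at 9.42 ± 4.84, Nr1d2 at 7.78 ± 2.26 and Clock at 7.36 ± 2.55 (SD, n = 3 each). Per3, Arntl and Per2 closed the order at 2.503 ± 0.658, 2.07 ± 0.191 and 1.91 ± 0.510 FPKM. Neighbours from Cry1 down to Clock overlapped each other in that order, as did Per3, Arntl and Per2, while Per1 stood clear of Cry1 and Clock stood clear of Per3. In the libraries labelled cKO the order was the same except for Dbp, which lay behind Nr1d2 and Clock. There only Cry2 with Nr1d1, Per3 with Arntl and Arntl with Per2 overlapped as neighbours.

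**Figure D1:**
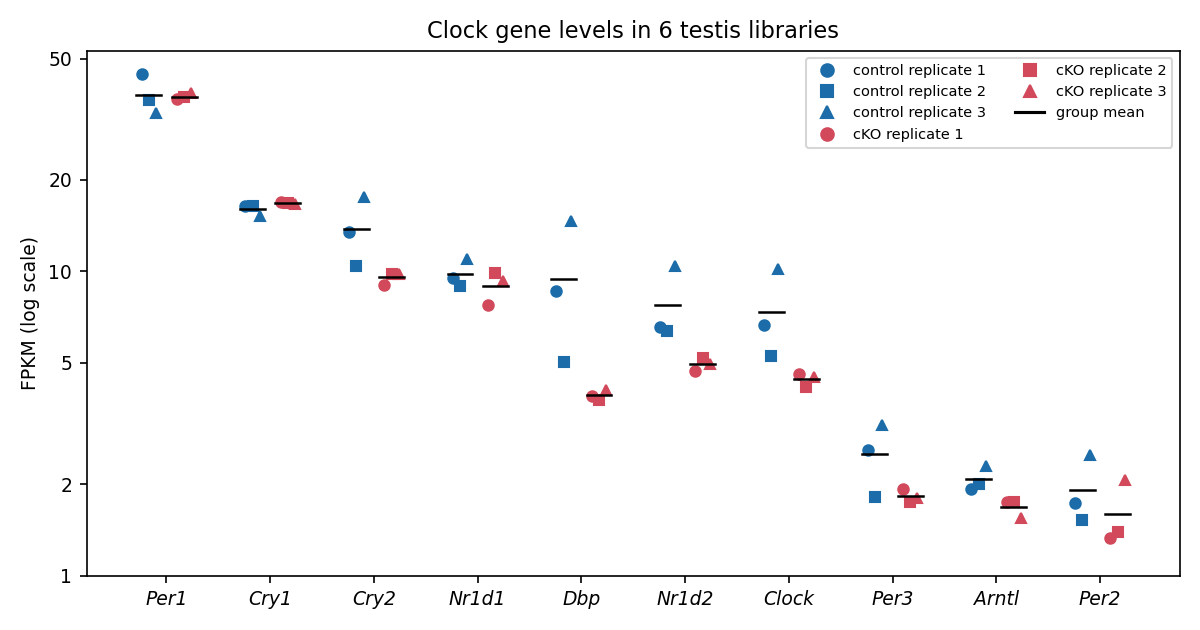
FPKM on a log axis of the 10 clock genes in each of the 6 libraries, with blue for the label control, red for the label cKO, symbols for the replicate number and a black line for the group mean. Per1 lies above 33 FPKM in every library, the cKO libraries lie close together except for Per2 and Nr1d1, and control replicate 3 is the highest control in 8 of 10 genes.

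Across the comparison of labels, no member passed. edgeR's quasi-likelihood test called 0 of 10 members at an adjusted p of 0.05, where it called 0% of 18269 genes in either direction. At an unadjusted p under 0.05, 4 members were lower in the libraries labelled cKO (Dbp, Clock, Nr1d2 and Cry2) and 0 were higher, beside 18.8% and 8.85% of all genes. The groups did not overlap for 5 members on the lower side (those 4 and Arntl) and for Cry1 on the higher side, against 19.8% and 18% of all genes. The median log2 fold change of the members was -0.29, and that of all genes was -0.0048. The estimate was below 0 for 7 members and above 0 for 3, beside 50.5% and 49.5% of all genes. This split was 9 to 1 by library totals and on FPKM. There the median of all genes was lower too, at -0.10 by library totals and -0.050 and -0.060 on FPKM. DESeq2 called Dbp alone, lower, where it called 9.38% of 15545 genes lower and 0.547% higher, and again Dbp alone beside 9.24% and 0.558% when given the edgeR-filtered genes. limma on FPKM called 0 members, beside 0.0065% of 15390 genes higher and 0% lower with either pseudocount. The library labelled control replicate 2 decided the edgeR count: without it 5 members were called lower (Dbp, Clock, Nr1d2, Cry2 and Per3) and 0 higher, beside 20.7% and 11% of all genes, and the members' median was -0.38. Without control replicate 3 edgeR called 0 members, beside 0.0108% of 18507 genes higher and 0% lower, and the median was -0.17.

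**Figure D2:**
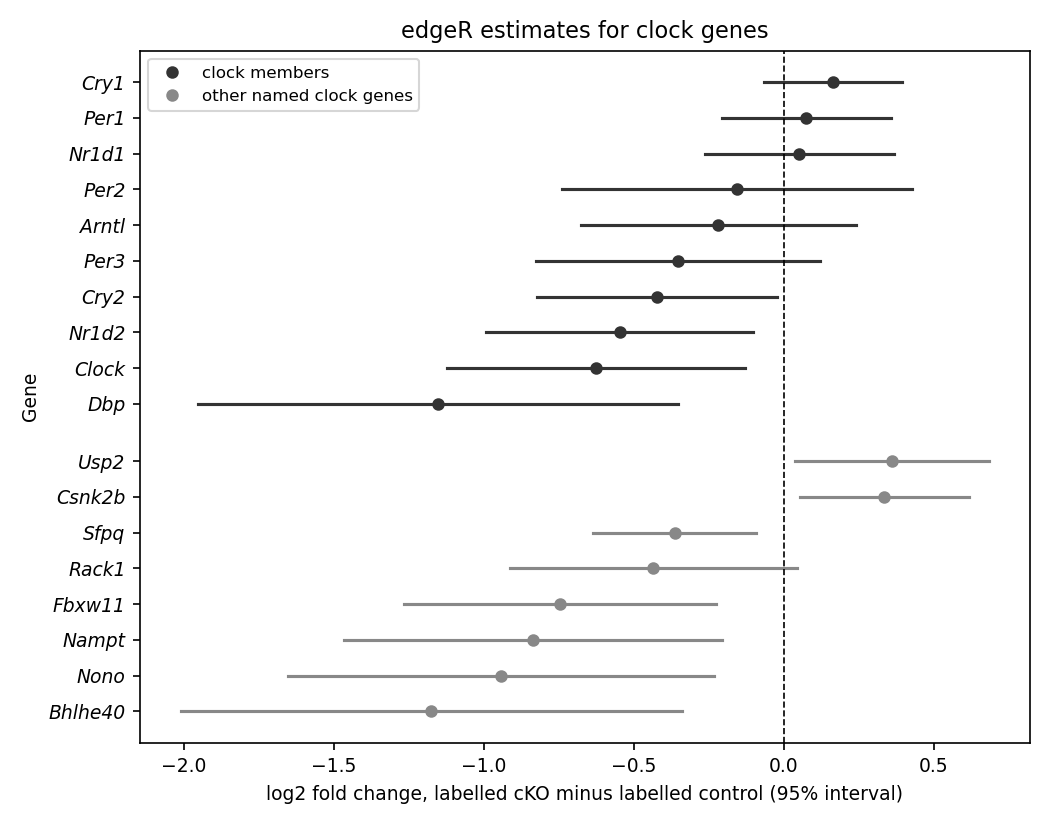
edgeR log2 fold changes (labelled cKO minus labelled control, points) with their 95% intervals (bars) for the 10 members (dark) and 8 other named clock genes (grey), against a dashed line at 0. Dbp has the lowest estimate among the members at -1.15, and the intervals of Cry1, Per1, Nr1d1, Per2, Arntl and Per3 reach across 0.

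The output gene Dbp had the largest difference of the 10. Dbp encodes a PAR bZIP transcription factor and lies on chromosome 7 (mm10, 45705100 to 45710203, plus strand). It was measured at 8.59, 5.05 and 14.63 FPKM in control replicates 1, 2 and 3 and at 3.90, 3.79 and 4.07 in cKO replicates 1, 2 and 3. All libraries labelled cKO lay below all labelled control, but control replicate 3 was far above its group and replicate 2 came near the cKO level. The edgeR log2 fold change was -1.15 (SE 0.34, 95% interval -1.96 to -0.35, adjusted p = 0.166), a 2.23-fold lower level. The adjusted p was 0.0236 in DESeq2 and 0.00888 in edgeR without control replicate 2, and ran up to 0.377 over the alternatives. Without control replicate 3 the log2 fold change was -0.70. Sphk2, a sphingosine kinase gene, overlaps Dbp on the opposite strand with 539 shared exon bases, and strandedness of the libraries is not given, so reads there cannot be assigned by strand. Sphk2 stood at 15.8, 12.9 and 16.7 against 10.9, 12.4 and 10.8 FPKM.

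The activator genes Clock and Arntl were lower in every library labelled cKO than in every library labelled control, by unequal margins. Clock (chromosome 5, 76209868 to 76305603, minus strand) encodes the bHLH-PAS partner of BMAL1. It was at 6.64, 5.25 and 10.19 FPKM in control replicates 1 to 3 and at 4.61, 4.18 and 4.48 in the cKO libraries. Control replicate 3 was again the highest and replicate 2 the closest to the cKO range. The edgeR log2 fold change was -0.63 (SE 0.21, 95% interval -1.12 to -0.13, adjusted p = 0.166), -0.34 without control replicate 3, and the adjusted p ran from 0.0152, without control replicate 2, to 0.377. Arntl (chromosome 7, 113178471 to 113314126, plus strand) was at 1.93, 2.0 and 2.29 FPKM against 1.74, 1.74 and 1.55. Its libraries lay close together in both groups, and it rested on 81 to 117 expected counts a library. Its log2 fold change was -0.22 (SE 0.20, 95% interval -0.68 to 0.24, edgeR adjusted p = 0.457).

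The 3 Period genes, which encode the PAS-domain inhibitors of the loop, did not share a pattern. Per1 (chromosome 11, 69095108 to 69109965, plus strand) was at 44.52, 36.54 and 33.25 FPKM in the control libraries and at 36.74, 37.27 and 38.41 in the cKO libraries. The cKO libraries sat inside the control range, and control replicate 3, the highest for Dbp and Clock, was the lowest for Per1. The edgeR log2 fold change was 0.075 (SE 0.12, 95% interval -0.21 to 0.36), -0.024 by library totals, -0.013 on FPKM and -0.026 without control replicate 3. Per2 (chromosome 1, 91415977 to 91459351, minus strand) was at 1.73, 1.52 and 2.49 against 1.33, 1.39 and 2.06 FPKM. The highest library of each group was replicate 3 and the groups overlapped, with a log2 fold change of -0.16 (SE 0.25, 95% interval -0.74 to 0.43) that was 0.060 without control replicate 3. Per3 (chromosome 4, 150997018 to 151044707, minus strand) was at 2.58, 1.81 and 3.12 against 1.93, 1.74 and 1.80 FPKM. On FPKM, control replicate 2 lay inside the cKO range and the other controls above it. On scaled counts, control replicate 2 was instead the lowest of all 6 libraries, just below cKO replicate 2. The log2 fold change was -0.35 (SE 0.20, 95% interval -0.83 to 0.12), and the edgeR adjusted p of 0.264 was 0.0429, with -0.51, without control replicate 2, and 0.550, with -0.18, without control replicate 3.

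The cryptochromes, the other inhibitors, lay in opposite directions. Cry1 (chromosome 10, 85131700 to 85185054, minus strand) was at 16.36, 16.45 and 15.24 FPKM in the control libraries and at 16.95, 16.77 and 16.60 in the cKO libraries. The groups did not overlap, but the gap between them was narrow. The edgeR log2 fold change was 0.16 (SE 0.099, 95% interval -0.065 to 0.39, adjusted p = 0.280), and 0.066 by library totals and 0.063 and 0.067 on FPKM. Cry2 (chromosome 2, 92403646 to 92434085, minus strand) was at 13.42, 10.41 and 17.54 against 9.04, 9.83 and 9.83 FPKM. All cKO libraries were below all controls, with control replicate 2 close to them. Its log2 fold change was -0.42 (SE 0.17, 95% interval -0.82 to -0.022, edgeR adjusted p = 0.174), and the adjusted p was 0.0195 without control replicate 2 and 0.275, with -0.23, without control replicate 3, up to 0.380. An antisense transcript, D930015M05Rik, shares 295 exon bases with Cry2 and was at 0 to 0.55 FPKM.

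The nuclear receptors Nr1d1 and Nr1d2, also called REV-ERB alpha and beta, also differed from each other. Nr1d1 (chromosome 11, 98767932 to 98775377, minus strand) was at 9.54, 8.96 and 11.01 FPKM in the control libraries and at 7.77, 9.85 and 9.28 in the cKO libraries. The groups overlapped, and the estimate was near 0, with a log2 fold change of 0.051 (SE 0.14, 95% interval -0.26 to 0.37) that was -0.049 by library totals, -0.12 and -0.13 on FPKM and -0.036 without cKO replicate 2. Nr1d2 (chromosome 14, 18204056 to 18239106, minus strand) was at 6.57, 6.38 and 10.38 against 4.70, 5.18 and 4.97 FPKM. All cKO libraries were lower than all controls, and control replicate 3 stood well above the other controls. Its log2 fold change was -0.55 (SE 0.19, 95% interval -0.99 to -0.10, edgeR adjusted p = 0.166), -0.30 without control replicate 3, and the adjusted p ran from 0.0339, without control replicate 2, to 0.377. Thra, the thyroid hormone receptor alpha gene, runs over the end of Nr1d1 on the opposite strand, with 263 shared exon bases. It was at 7.10, 4.89 and 12.22 against 4.28, 3.63 and 3.45 FPKM, so its control libraries were in the same order as those of Nr1d1, with a wider spread, and its groups did not overlap. Of the 3 Nr1d1 transcripts in the tables, 2 were assembled by the submitters' pipeline, and the length used for its FPKM ran from 3026 to 3426 bases between libraries.

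Ratios between members within a library, which need no scaling between libraries, were also computed. The share of other gene pairs whose ratios do not overlap between groups was not computed. Cry1 over Cry2 in FPKM was 1.22, 1.58 and 0.869 in the control libraries and 1.88, 1.71 and 1.69 in the cKO libraries. Nr1d1 over Nr1d2 was 1.45, 1.40 and 1.06 against 1.65, 1.90 and 1.87. The groups did not overlap for either ratio, at a two-sided exact permutation p of 0.1 for each, the smallest that 3 against 3 allows, and 0.3 adjusted over the 6 ratios computed. Dbp over Arntl, genes of opposite phase in cycling organs, was 4.45, 2.53 and 6.39 against 2.24, 2.18 and 2.63, and overlapped between groups (exact permutation p = 0.2, adjusted 0.3). Per1 over Per2 was 25.7, 24.0 and 13.4 against 27.6, 26.8 and 18.6, with replicate 3 the lowest in each group (exact permutation p = 0.5). Per1 over Per3 (exact permutation p = 0.2) and Clock over Arntl (0.3) overlapped as well.

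**Figure D3:**
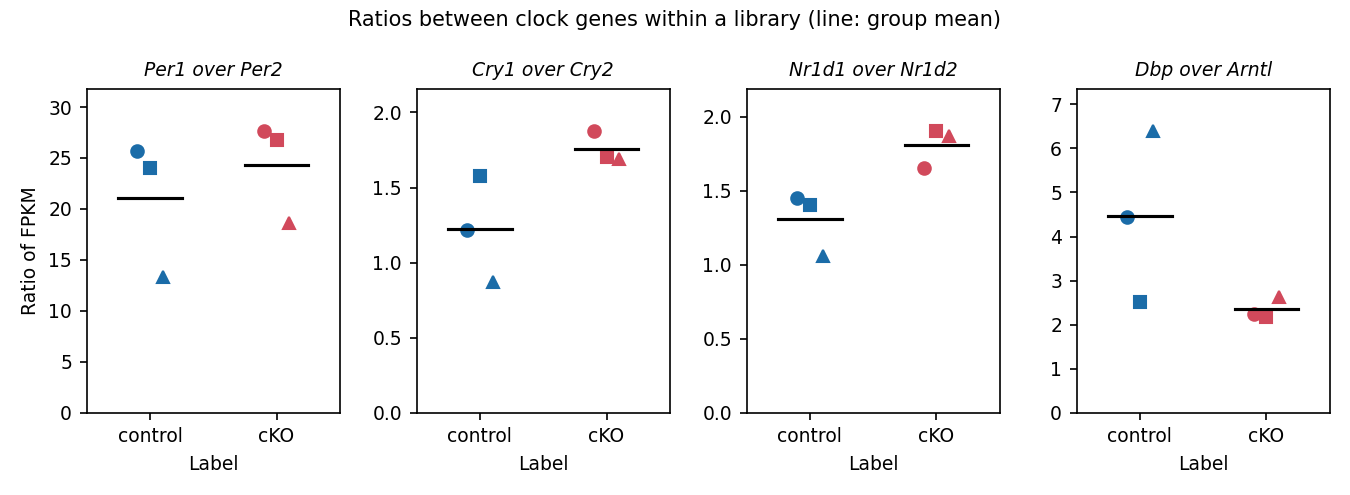
Ratio of FPKM between clock genes within each library, on linear axes from 0, with blue for control, red for cKO, symbols for the replicate number and a line for the group mean. The cKO libraries lie above all controls for Cry1 over Cry2 and for Nr1d1 over Nr1d2, and overlap the controls for Per1 over Per2 and for Dbp over Arntl.

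The order of the control libraries recurred among part of the members. By TMM-scaled CPM, it ran 3, 1, 2 from highest to lowest for 6 of 10 members and for 34.7% of all genes. Control replicate 3 was the highest control for 8 of 10 members and for 45.3% of all genes. It was the lowest of all 6 libraries for Per1 and Cry1 and for 35.5% of all genes. Dbp in control replicates 1, 2 and 3 lay 1.0, 0.31 and 1.76 log2 units above the mean of the cKO libraries, and Clock 0.47, 0.19 and 1.07. The mean of the Leydig markers in the same libraries lay 1.43, 0.48 and 2.37 above, and that of the Sertoli markers 0.86, 0.31 and 1.65. Cry1 lay at -0.15, -0.08 and -0.26, and the round spermatid markers at -0.31, -0.12 and -0.60. Not all members followed the order of a marker list: Nr1d2 lay at 0.29, 0.31 and 0.94, Arntl at 0.10, 0.21 and 0.34, and Per1 at 0.13, -0.09 and -0.30. The part of the cell markers in the differences of the members was not tested.

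**Figure D4:**
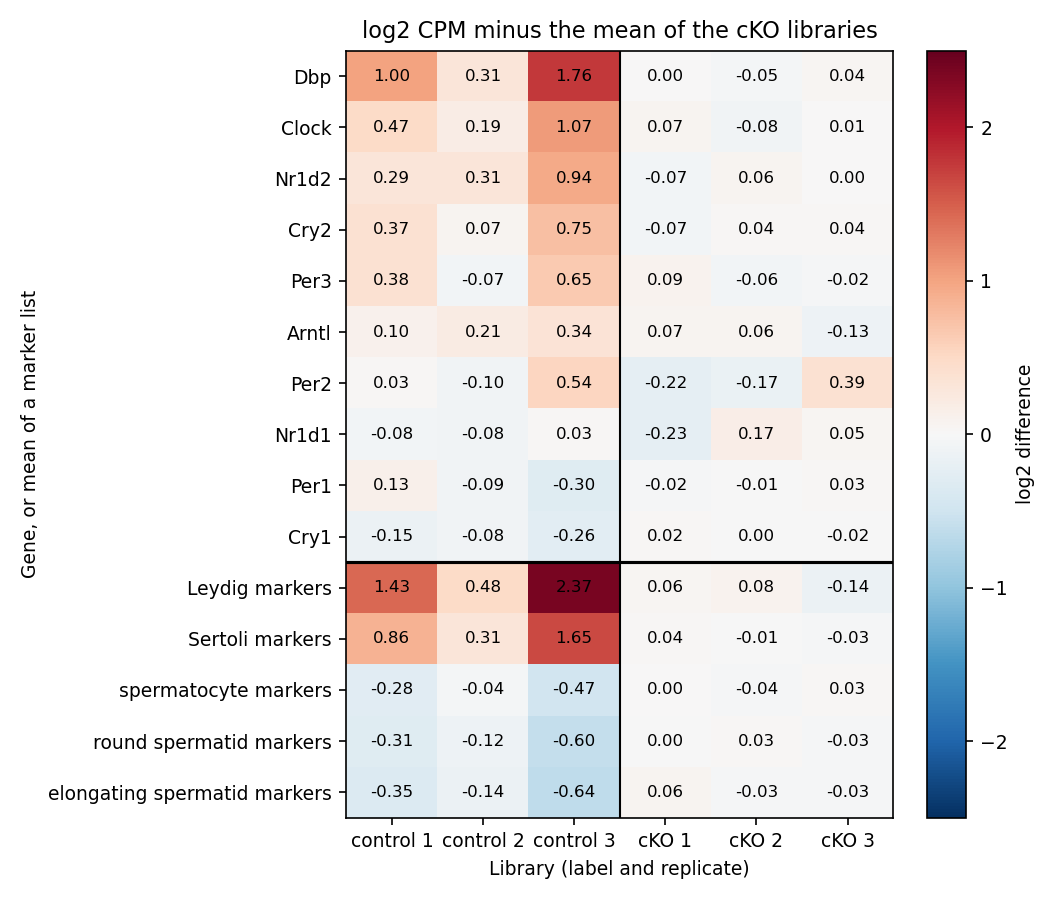
Difference in log2 CPM from the mean of the cKO libraries, by colour and number, for the 10 members (above the line) and for the mean of 5 marker lists (below it), in each of the 6 libraries. Dbp, Clock, Nr1d2 and Cry2 are highest in control replicate 3, as are the Leydig and Sertoli markers, while Cry1 and the spermatocyte and spermatid markers are lowest there.

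The spread between libraries was set beside the counting error. Among the cKO libraries, Dbp varied by 3.32% (coefficient of variation of scaled counts) and Arntl by 8.05%, less than the 9.15% and 10.6% that counting alone gives at their depth. Per2 and Nr1d1 had the widest spread in this group, at 25.03% and 13.9% against 7.59% and 4.24% from counting. Among the control libraries Dbp varied by 49.8%, Clock by 32.3% and Nr1d2 by 27.2%, against 6.04%, 2.80% and 3.95% from counting. Arntl, at 8.28%, stayed under its counting error of 9.67% there too. Control spread exceeded cKO spread for 8 of 10 members and for 79.8% of all genes.

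Other genes of the clock pathway were taken from a list of 47 symbols, of which 45 were listed and 44 tested. edgeR called 0 of them, where it called 0% of all genes. At an unadjusted p under 0.05, 11 were lower and 3 higher, beside 18.8% and 8.85% of all genes, and their median log2 fold change was -0.14 (30 of 44 negative). Bhlhe40, a repressor that competes for E-boxes, was at 3.46, 2.14 and 6.32 FPKM in the control libraries against 1.66, 1.60 and 1.63, a log2 fold change of -1.18 (SE 0.36, edgeR adjusted p = 0.166) that was -0.69 without control replicate 3. Nampt, the clock-controlled enzyme of NAD synthesis, was at 8.04, 6.04 and 13.96 against 4.67, 4.89 and 5.01. For both of these genes too, control replicate 3 was the highest library and replicate 2 the control nearest to the cKO libraries.

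Fbxw11, a ubiquitin ligase subunit that degrades PER proteins, was at 10.02 ± 3.48 FPKM in the control and 5.54 ± 0.0436 FPKM in the cKO libraries. The RNA-binding proteins Nono and Sfpq, partners of PER complexes, stood at 15.8 ± 7.66 and 51.2 ± 4.72 FPKM under the label control and at 7.63 ± 0.300 and 42.7 ± 1.77 FPKM under the label cKO (SD, n = 3 each). Among the most abundant genes of the list were Csnk2b, a subunit of casein kinase CK2, at 567 ± 66.1 against 669 ± 19.4, the deubiquitinase gene Usp2 at 140.0 ± 22.1 against 168 ± 2.47, and the scaffold gene Rack1 at 98.6 ± 33.2 against 67.8 ± 1.27 FPKM. Csnk2b and Usp2 were higher in all cKO libraries than in all controls, with log2 fold changes of 0.34 (SE 0.12) and 0.36 (SE 0.14), while Rack1 overlapped. Without control replicate 2 the edgeR adjusted p was 0.0301 for Csnk2b and 0.0389 for Usp2, up to 0.378 over the alternatives for each, and Usp2 was at 0.23 without control replicate 3. DESeq2 called 6 of the list lower, among them Bhlhe40, Nono, Nampt, Fbxw11 and Rbm3, the last of them outside the naming rule and chosen after its values were seen, beside 9.38% of all genes. Without control replicate 2, edgeR called 12 of the list lower and 2 higher, beside 20.7% and 11% of all genes.

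The genes whose log2 CPM followed a member most closely over the 6 libraries were sought among 12414 named genes with a mean of at least 1 FPKM. For Dbp they were Mertk, a receptor tyrosine kinase, Acsbg1, an acyl-CoA synthetase, and Aard (Pearson r = 0.9998, 0.9995 and 0.9995). For Arntl they were the metalloprotease gene Adam8, Etaa1 and the nucleolar methyltransferase gene Fbl (r = 0.989, 0.983 and 0.983), and for Per2 the zinc transporter gene Slc30a6, the actin regulator Enah and Arhgap42 (r = 0.995, 0.995 and 0.973). These are descriptions over 6 points that share their libraries, depth and cell makeup, and they are the highest of many values. Mertk was at 8.84 against 4.62 FPKM, Acsbg1 at 162 against 51.6 and Aard at 153 against 74.8, a direction that their selection by likeness to Dbp fixes. Aard is also a gene of the Sertoli marker list.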

How the data were processed

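Poly(A)-selected testis RNA was sequenced in 6 libraries, per the labels' protocols. Per the submitters' processing notes, bcl2fastq 2.16, HISAT2 2.0.4, Bowtie2 2.2.5, RSEM and DESeq2 were used with build mm10, with no role given. Expected counts are, per the file headers, the authors' estimated counts per gene, not normalized, with 24.6 to 25.8% of them not whole. FPKM was deposited scaled for length and depth by the authors. The lowest FPKM listed is 0.01, and genes not listed for a library were given 0 there. No strandedness is given in the sources used here.

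Expected counts were rounded, filtered by filterByExpr (minimum count 10, minimum total 15) and scaled by TMM. The test was the quasi-likelihood F-test of edgeR 4.0.16 under R 4.3.3 (Benjamini-Hochberg over 18269 genes, threshold 0.05). Log2 CPM used a prior count of 2. SE is the size of the log2 fold change over the root of F. Single values were compared by the two-sided exact permutation test. The tests were run on simulated counts with the same spread for every gene, set below the common spread of these data, and with no divergent library. That check does not cover control libraries as unlike each other as these. Alternatives were DESeq2 1.42.0, also on the edgeR-filtered genes (chosen after seeing the data), DESeq2 size factors, library totals, limma 3.58.1 on log2(FPKM + 1) and log2(FPKM + 0.1), no filter, a filter of 5 CPM in 3 or more libraries, fits without 1 library, and a replicate block. Overlaps between genes came from GENCODE M21 and positions from the RefSeq table of GRCm38.p6.

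The members, lists and alternatives were chosen with earlier results of these data known. Named are all members, from the list of other clock genes the 6 with the smallest p and the 4 with the highest FPKM, the 2 with the smallest p of each response list, the defining markers, overlapping genes, and the 3 genes most like Dbp, Arntl and Per2, and 2 genes that the rule takes are not reported here. A blood cell list was also read (8 genes, 5 tested, median log2 fold change -0.064). That median leaves out Hbb-bs and Hbb-bt, below the filter and picked after their values were seen. Hbb-bs was at 0.08, 0 and 0 FPKM in control replicates 1 to 3 and at 11.42, 0.11 and 13.26 in cKO replicates 1 to 3 (DESeq2 adjusted p = 0.0149). Hbb-bt was at 0 in each control and at 2.39, 0 and 2.7 in the cKO libraries. Hbb-b1 and Hbb-b2 of the same list were measured in every library. Hbb-b1 was at 24.61, 21.11 and 31.93 FPKM in control replicates 1 to 3 and at 13.79, 43.41 and 12.11 in cKO replicates 1 to 3. Hbb-b2 was at 3.69, 3.13 and 4.85 against 2.11, 6.38 and 1.76 FPKM. Within the cKO group both were highest in replicate 2, where Hbb-bs and Hbb-bt were lowest. The cause was not tested. The replicate numbers were not taken as pairs: deviations of same-numbered libraries correlated at 0.043, -0.0067 and -0.039.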

Additional observations from a re-analysis of the deposited data

How the results depend on the processing

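The clock members' median log2 fold change was negative under every alternative run, between -0.39 (library totals) and -0.17. Over the fits that leave out a library it ranged from -0.38 to -0.17. The number of members whose groups did not overlap was 6 or 7, and 6 in the main fit, beside 18% of all genes higher and 19.8% lower there. Each count of 7 came from a fit without 1 library, where smaller groups separate more easily. The share of all genes under the alternatives was not computed. Calls were less stable. DESeq2 called 1543 genes, 1 member and 6 other clock genes, and 1511, 1 and 6 when given the edgeR-filtered genes, an alternative chosen after seeing the data. limma on FPKM called 1 gene with either pseudocount and 0 members. Leaving out a library gave 0 to 5900 genes, 0 to 5 members and 0 to 14 other clock genes in edgeR, with the highest values without control replicate 2, where the members called are Dbp, Clock, Nr1d2, Cry2 and Per3. The sign turned for Per1 by library totals (-0.024), on FPKM (-0.013 with both pseudocounts) and without control replicate 3 (-0.026), for Nr1d1 by library totals (-0.049), on FPKM (-0.12 and -0.13) and without cKO replicate 2 (-0.036), and for Per2 without control replicate 3 (0.060). Over the fits without 1 library Per1 ran from -0.026 to 0.19, Nr1d1 from -0.036 to 0.16 and Per2 from -0.38 to 0.060. The cause was not tested. The replicate block gave 0 calls over all genes, members and other clock genes, and a member median of -0.27. Not every library correlated best with the library of its own number. Library totals moved the median of all genes from -0.0048 to -0.10 on the log2 scale. Depth limits Arntl most, at 81 to 117 expected counts a library.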

Other observations

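A pair of lists that reach Per1 by other routes was also read, since stress hormones and immediate early signals are known to induce that gene. Of 16 glucocorticoid response genes, all tested, edgeR called 0, and at an unadjusted p under 0.05, 9 were lower and 0 higher in the libraries labelled cKO, beside 18.8% and 8.85% of all genes, with a median log2 fold change of -0.67. Gadd45a, a stress sensor, was at 4.92, 2.33 and 8.16 FPKM in the control libraries and at 1.94, 1.32 and 0.99 in the cKO libraries. Pdk4, a kinase that inhibits pyruvate dehydrogenase, was at 1.61, 0.97 and 3.11 against 0.58, 0.73 and 0.44 FPKM. Control replicate 3 was the highest library for both, as it was for Dbp. DESeq2 called 6 of the list lower, beside 9.38% of all genes. Without control replicate 2 edgeR called 9 lower, beside 20.7% of all genes, and without control replicate 3 the median was -0.38.

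Of 22 immediate early genes, 20 were tested. edgeR called 0, and at an unadjusted p under 0.05, 6 were lower and 2 higher, beside the same shares of all genes, with a median log2 fold change of -0.60, or -0.22 without control replicate 3. Klf6 was at 4.15, 2.79 and 8.58 against 2.04, 2.0 and 1.72 FPKM, and Myc, the growth regulator, at 0.47, 0.31 and 0.89 against 0.18, 0.16 and 0.18. DESeq2 called 4 of the list lower, beside 9.38% of all genes, and edgeR without control replicate 2 called 9 lower, beside 20.7%. Per1 itself lay at 33.25 FPKM, its lowest, in the library where Klf6 and Myc were highest. Myc rested on means of 23.3 and 7.67 expected counts under the labels control and cKO. Of the 20 tested genes of the list, 13 had estimates below 0 and 7 above. Nr4a1, Egr3 and Klf4, chosen after their values were seen, were like Per1 lowest in that library, at 10.92, 5.69 and 33.87 FPKM. What lay behind the Per1 level was not tested.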
